A study of Mus musculus with 6 samples.

Results

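Fibroblasts carry a characteristic set of surface proteins, and 10 of their genes are described here: Thy1, Pdgfra, Pdgfrb, Cd44, Nt5e, Eng, Vcam1, Cd248, Nrg1 and Ngfr. They were taken by name, as mesenchymal surface genes that are normally lost when a fibroblast is turned into a pluripotent cell, and they make up 10 of the 19938 genes measured. This list and the 9 further lists below were chosen with earlier results of these data known. Their counts beside those of all genes are therefore a description only. Each of the 10 had 1 probeset on the array. The cells were 6 mouse induced pluripotent stem (iPS) lines, each grown from 1 picked colony and measured once on a whole-transcript array. All 6 lines began as OG2 mouse embryonic fibroblasts, cells that carry a green fluorescent reporter of Oct4 activity, and all received retroviruses for Sox2, Klf4, Oct4 and c-Myc. The 3 control clones (2, 3 and 4) also received a short hairpin RNA (shRNA) retrovirus against luciferase, and the 3 shECAD clones (4, 8 and 9) one against E-cadherin. Infected cells were moved to feeders on day 6, their colonies picked on day 14, and feeder cells were eliminated after trypsin treatment, before the RNA was extracted. How much feeder RNA remained was not measured separately in either group. Unreprogrammed fibroblasts are not among the arrays analysed here, so no level can be set against a pure fibroblast. The labels name separate lines but no separate infections, and the p-values therefore measure the spread between clones only. The comparison asks whether surface genes of the starting fibroblast differ in level between lines made with E-cadherin shRNA and control lines.

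Reprogramming of mouse fibroblasts begins with a mesenchymal-to-epithelial change, in which fibroblast surface proteins are lost and E-cadherin appears. Loss of Thy1 from the surface is widely used to follow the first steps of that change, and CD44 is likewise used to sort cells on the way to pluripotency. Several of these proteins are not exclusive to fibroblasts: PDGFRA also marks primitive endoderm, endoglin also marks endothelial cells, and PDGFRB and CD248 also mark pericytes. In RNA from a whole culture, a change in the number of cells of a type and a change in RNA per cell cannot be told apart.

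The array reads transcripts and not promoters, but the upstream sequences of the most variable and the least variable member with an entry in the promoter table are given for reference. RefSeq promoter sequences (GRCm38.p6) were at hand for 5 of the 10 members, Cd44, Pdgfra, Nt5e, Eng and Ngfr. Of these, Cd44 varied most over the 6 clones (SD 1.02 on the log2 scale) and Ngfr least (SD 0.11). The 250 bases before the start site are shown 5′ to 3′ on the gene's own strand, the minus strand for both, at chr2:102901666-102901915 for Cd44 and chr11:95587699-95587948 for Ngfr. Capitals mark GGGCGG, the GC box, on either strand.
Cd44: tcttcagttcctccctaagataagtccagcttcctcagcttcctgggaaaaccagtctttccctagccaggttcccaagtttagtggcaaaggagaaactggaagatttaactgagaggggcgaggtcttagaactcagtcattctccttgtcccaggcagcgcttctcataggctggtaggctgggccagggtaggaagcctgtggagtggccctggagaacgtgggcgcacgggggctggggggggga
Ngfr: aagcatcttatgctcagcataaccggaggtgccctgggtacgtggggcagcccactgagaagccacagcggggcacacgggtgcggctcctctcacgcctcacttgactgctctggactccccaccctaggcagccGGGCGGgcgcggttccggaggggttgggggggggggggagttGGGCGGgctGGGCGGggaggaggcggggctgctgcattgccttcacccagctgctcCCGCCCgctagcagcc
The Ngfr stretch holds 4 matches, none overlapping, and 16 CG dinucleotides, and the Cd44 stretch holds 0 matches and 5 CG dinucleotides. Of 32851 promoter windows of the same length, 32.7% hold at least 1 match and 4.09% hold at least 4. Nt5e, whose level also varied among the clones (SD 0.74), holds 4 matches as well.

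All values below are log2 expression values, on which a difference of 1 is a doubling, and each set of 3 values follows the clone numbers (control 2, 3, 4 and shECAD 4, 8, 9). Array medians lay between 5.11 and 5.30. The mRNA of Cdh1, which encodes E-cadherin, read 9.18, 9.60 and 9.07 in the control group and 6.75, 6.92 and 7.81 in the shECAD group, so each shECAD clone lay below each control clone. The 18 pluripotency genes examined all lay above the dim reference on every array and 0 of them were called by limma in either direction. Of the 18, 6 had an unadjusted limma p below 0.05, all of them lower in the shECAD clones, and 4 had a positive change. The shECAD clones all lay below the control clones for 4 genes and above them for 0, where 12.5% and 11.1% of all genes did so. The mean level of the 18 was 9.22 to 9.42 in the control clones and 8.72 to 9.18 in the shECAD clones. As a dim reference, the 95th percentile of 1015 olfactory receptor genes was taken on each array (4.36 to 4.86), since these genes are not expected to be active in stem cells. The deposited table has no detection call of its own.

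Of the 10 surface genes, 2 rose in the shECAD clones, Thy1 and Pdgfrb, 0 fell and 8 did not pass the test (limma, Benjamini-Hochberg adjusted p below 0.05 over all 19938 genes). Over all genes, 3.12% were called, 1.90% as higher and 1.23% as lower. The 3 shECAD clones all lay above the 3 control clones for 6 members (Thy1, Pdgfrb, Cd44, Vcam1, Nrg1 and Cd248) and below them for 0, where 11.1% of all genes were without overlap in the upward direction and 12.5% in the downward (23.6% in all). At an adjusted p below 0.1, 5 members were higher, against 3.56% of all genes. The median change of the 10 was 0.79, and that of all genes was 0.025. The estimate was positive for 9 members. Since the list was chosen with earlier results of these data known, these counts describe it and are no independent support. With clones left out, 4 members were called without control clone 2 and 1 without shECAD clone 8.

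**Figure D1:**
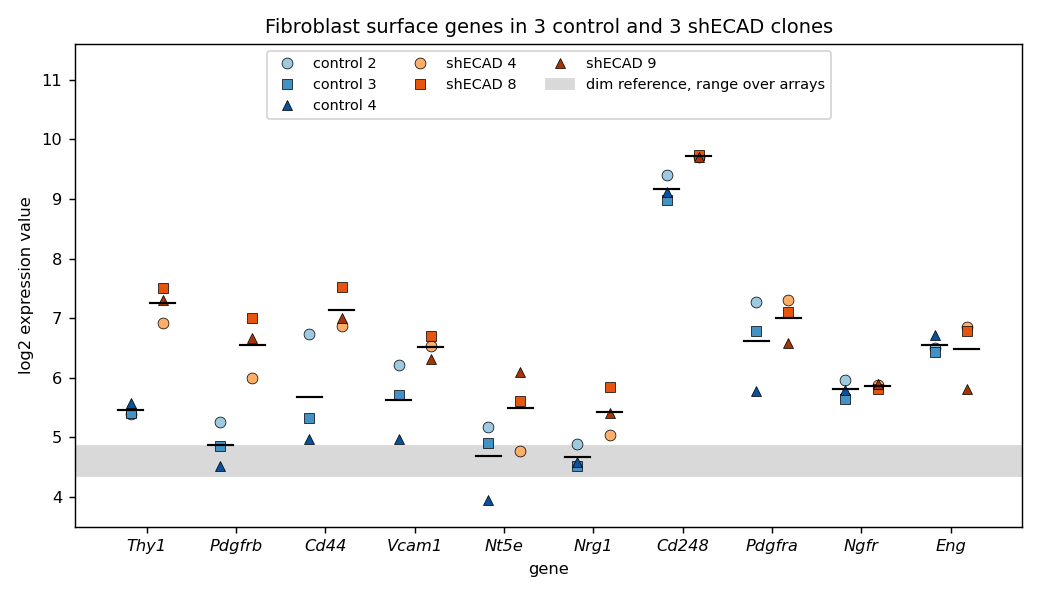
Log2 expression value (y axis) of each of the 10 surface genes (x axis, ordered by change) in the 3 control clones (blue) and the 3 shECAD clones (orange); black bars are group means and the grey band is the range of the dim reference over the arrays (4.36 to 4.86). The groups are well apart for Thy1 and Pdgfrb, lie close together without overlap for Cd44, Vcam1, Nrg1 and Cd248, and overlap for Nt5e, Pdgfra, Ngfr and Eng.

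Thy1, a small glycoprotein held in the membrane by a lipid anchor, showed the clearest separation. Its probeset (10584628) read 5.40, 5.41 and 5.57 in the control group and 6.92, 7.51 and 7.31 in the shECAD group. The control clones were within 0.17 of each other, and the lowest shECAD clone lay 1.35 above the highest control clone. Controls averaged 5.46 ± 0.10 and shECAD clones 7.25 ± 0.30 (SD, n = 3 per group). Thy1 rose 3.46-fold (95% interval 2.62 to 4.55), a log2 change of 1.79 ± 0.18 (SE) with a limma adjusted p of 0.00282. It stayed called when any 1 clone was left out, with limma adjusted p-values from 0.00528 to 0.0208. The control values lay little above the 99th percentile of the olfactory receptor genes on their arrays (5.40, 5.12 and 5.35). The fold and the shares that follow therefore rest partly on values near background. On the linear scale the 3 control clones held 27.8%, 27.9% and 31.2% of the shECAD mean. For these shares, here and below, that mean is the mean of the log2 values turned back to the linear scale.

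CD44, the receptor for the matrix polymer hyaluronan, differed widely among the control clones. Its gene (probeset 10485405) read 6.74, 5.33 and 4.97 in the control group and 6.87, 7.53 and 7.00 in the shECAD group. Control clone 2 stood just 0.13 below the lowest shECAD clone, at 76.4% of the shECAD mean on the linear scale, and control clones 3 and 4 stood at 28.6% and 22.4%. The log2 change was 1.45 ± 0.38 (SE; 95% interval 0.60 to 2.30) and did not pass the test (limma adjusted p = 0.0727). Without control clone 2 it was 1.98 and was called (limma adjusted p = 0.00481), and it was also called with array weights (1.59, adjusted p = 0.0374). Without control clone 4 it was 1.10 (adjusted p = 0.215), and over all the other settings the adjusted p lay above the threshold, up to 0.194. The intervals given for each gene are not adjusted for the number of genes, so that one may leave out 0 where the adjusted p is above the threshold.

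VCAM1, an adhesion molecule that binds integrins on other cells, gave a like order of clones. Vcam1 (probeset 10501608) read 6.22, 5.71 and 4.97 in the control group and 6.53, 6.70 and 6.31 in the shECAD group. The groups were 0.09 apart at their nearest clones, less than the control clones' own range of 1.25. Its log2 change of 0.88 ± 0.27 (SE; 95% interval 0.28 to 1.49) did not pass the test (limma adjusted p = 0.116). It was called without control clone 2 (1.18, adjusted p = 0.0365) and with array weights (1.09, adjusted p = 0.048), but without control clone 4 it was 0.551 (adjusted p = 0.30).

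The 2 receptors for platelet-derived growth factor, which carry a tyrosine kinase inside the cell, are taken in turn. Pdgfrb (probeset 10456046) read 5.25, 4.86 and 4.52 in the control group and 5.99, 7.00 and 6.67 in the shECAD group. The control clones were all lower than the shECAD clones, with 0.74 between the nearest, and control clone 4 was below the dim reference of its array. Controls averaged 4.88 ± 0.37 and shECAD clones 6.55 ± 0.51 (SD, n = 3 per group). Pdgfrb rose 3.20-fold (95% interval 2.13 to 4.80), a log2 change of 1.68 ± 0.27 (SE) with a limma adjusted p of 0.0128. Each control clone lay below the 99th percentile of the olfactory receptor genes on its array, so this fold rests partly on values near background. Without shECAD clone 8, its highest clone, the change was 1.46 and the limma adjusted p was 0.0507.

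Pdgfra (probeset 10522503) read 7.27, 6.79 and 5.78 in the control group and 7.31, 7.10 and 6.58 in the shECAD group. The groups overlapped: control clone 2 was level with the highest shECAD clone, and only control clone 4 lay below all the shECAD clones. The log2 change was 0.38 ± 0.33 (SE; 95% interval -0.35 to 1.12), did not pass the test (limma adjusted p = 0.595) and was -0.03 without control clone 4. Whether the changes of Pdgfra and Pdgfrb differ from each other was not tested. PDGFRA is also a primitive endoderm protein, and of 11 primitive endoderm genes 1, the basement membrane collagen gene Col4a1, was called (log2 change 0.80, limma adjusted p = 0.0467); the mean level of these genes was 5.25 to 5.70 in the control clones and 5.71 to 6.01 in the shECAD clones. Col4a1 lost its call when any clone other than control clone 2 was left out. The part of such cells in the Pdgfra levels was not tested.

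Endoglin, a co-receptor for transforming growth factor beta (TGF-beta) and BMP ligands, showed no separation. Eng (probeset 10471486) read 6.50, 6.44 and 6.71 in the control group and 6.86, 6.78 and 5.82 in the shECAD group. The shECAD clones 4 and 8 lay above all the control clones and shECAD clone 9 below them all. The log2 change was -0.06 ± 0.26 (SE; 95% interval -0.63 to 0.51, limma adjusted p = 0.929), and it was 0.275 without shECAD clone 9, with a limma adjusted p of 0.512. Of the 12 endothelial genes examined, limma called 0, and 3 had an unadjusted p below 0.05. These were the VEGF receptor genes Flt1 and Kdr, with log2 differences of 1.0 and 0.70 and shECAD clones that all lay above the controls, and Pecam1, with -0.72 and the opposite order. Flt1 read 5.14, 4.91 and 4.96 in the control group and 5.61, 5.71 and 6.69 in the shECAD group, so that shECAD clone 9 was its highest clone, and Kdr was above the dim reference on 1 array. Pecam1 read 7.10, 7.41 and 7.32 in the control group and 6.92, 6.98 and 5.79 in the shECAD group, so that shECAD clone 9 was its lowest clone, as for Eng. Of the 12 genes, 6 were above the dim reference on all 6 arrays (Flt1 and Pecam1 among them) and 3 on none (Cdh5, Emcn and Erg). The part of endothelial cells in the Eng levels was not tested.

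NGFR, the low-affinity neurotrophin receptor used as a marker of neural crest and mesenchymal stem cells, was the steadiest member. Ngfr (probeset 10390175) read 5.97, 5.65 and 5.80 in the control group and 5.88, 5.81 and 5.89 in the shECAD group. The 6 clones spanned little and the shECAD clones lay inside the range of the control clones. The estimated difference of Ngfr was 0.06 ± 0.15 (SE) on the log2 scale (limma adjusted p = 0.882), and the 95% interval ran from -0.28 to 0.39, or 0.823-fold to 1.31-fold. With the arrays centred on their medians the sign turned (-0.0323). Of 9 neural crest and neural genes, 1 was called, the intermediate filament gene Nes (log2 change 1.22, limma adjusted p = 0.0302). Of the 9, 6 were above the dim reference on all 6 arrays, the crest regulator Sox10 among them (5.25 to 5.65), and 3 on none (the crest regulators Foxd3, Tfap2a and Pax3). Nes was no longer called in 4 of the 6 fits that left out a clone.

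**Figure D2:**
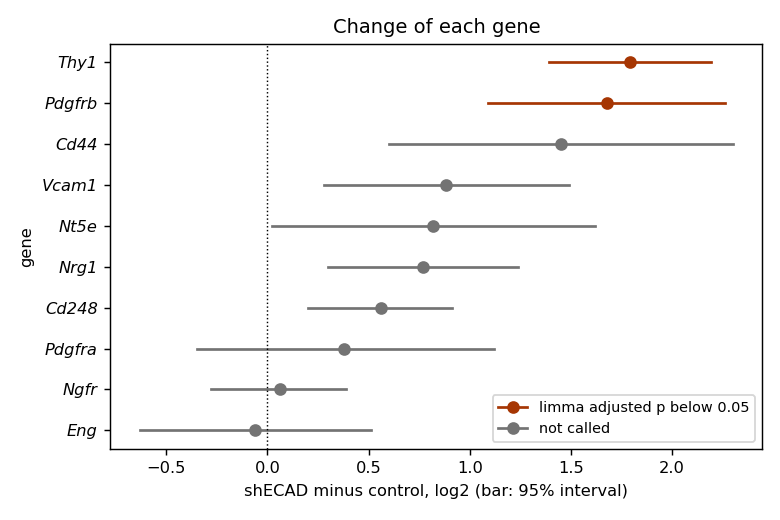
Change of each surface gene (y axis) as shECAD minus control on the log2 scale (x axis), with its 95% interval over 3 clones per group. Thy1 (1.79) and Pdgfrb (1.68) are called, while Cd44 (1.45) has a wide interval from 0.60 to 2.30.

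Nrg1 is the only secreted signal among the members, a neuregulin made as a membrane precursor that activates ERBB receptors. Its probeset (10578045) read 4.89, 4.52 and 4.59 in the control group and 5.04, 5.85 and 5.41 in the shECAD group. All the values were low, and 1 of the 6 exceeded the stricter reference, the 99th percentile of the olfactory receptor genes (shECAD clone 8). The groups were 0.15 apart at their nearest clones. Its log2 change of 0.77 ± 0.21 (SE; 95% interval 0.30 to 1.24) did not pass the test (limma adjusted p = 0.0837).

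Nt5e encodes CD73, a surface enzyme that makes adenosine from AMP. It read 5.18, 4.90 and 3.95 in the control group and 4.77, 5.61 and 6.10 in the shECAD group (probeset 10587639). The groups overlapped, since shECAD clone 4 lay below control clones 2 and 3, and control clone 4 was below the dim reference. A log2 change of 0.82 ± 0.36 (SE; 95% interval 0.02 to 1.62) did not pass the test (limma adjusted p = 0.265). It was 0.454 without control clone 4 and 0.515 without shECAD clone 9.

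Cd248 encodes endosialin, a lectin-like transmembrane protein of fibroblasts and pericytes. It read 9.40, 8.98 and 9.11 in the control group and 9.71, 9.74 and 9.71 in the shECAD group (probeset 10460541). The shECAD clones were within 0.03 of each other and 0.31 above the highest control clone. The log2 change was 0.56 ± 0.16 (SE; 95% interval 0.20 to 0.91), 1.47-fold, and did not pass the test (limma adjusted p = 0.0917). It was called with an intensity trend and a robust prior (adjusted p = 0.0318).

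The clones themselves ranked in a similar way for several members. The mean level of the 10 was 6.28, 5.86 and 5.60 for the controls and 6.59, 6.96 and 6.68 for the shECAD lines. Control clone 4 was the lowest of all 6 clones for 5 members (Pdgfra, Pdgfrb, Cd44, Nt5e and Vcam1), and shECAD clone 8 was the highest for 6 (Thy1, Pdgfrb, Cd44, Vcam1, Cd248 and Nrg1). For those same 5 members the control clones stood in the order 2, 3, 4 from high to low. So they did in 25 of 29 other fibroblast genes, mostly of the matrix and its regulators, and in 14.5% of all genes. The mean of those 29 genes was 6.86, 6.40 and 5.92 in control clones 2, 3 and 4. The order also held in 11 of 23 other mesenchymal surface genes and 11 of 40 genes of ligands and partners. It held in 5 of 11 blood, 3 of 11 primitive endoderm and 2 of 11 pericyte and smooth muscle genes. It held in 1 of 18 pluripotency genes and in 0 of the 12 endothelial and 9 neural crest and neural genes. Of the 5 blood genes, Csf1r, Spi1 and Itgb2 were below the dim reference in every control clone, so that their order has no meaning. Thy1, Cd248, Nrg1, Eng and Ngfr did not follow this order. On the linear scale control clone 2 held 121% of the shECAD mean for Pdgfra, 81.6% for Vcam1 and 80.7% for Nt5e, and control clone 4 held 43.1%, 34.3% and 34.2%. Nt5e was below the dim reference in control clone 4, so that its 34.2% rests on a value near background. The clones were numbered by the laboratory and the numbers have no order of their own.

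**Figure D3:**
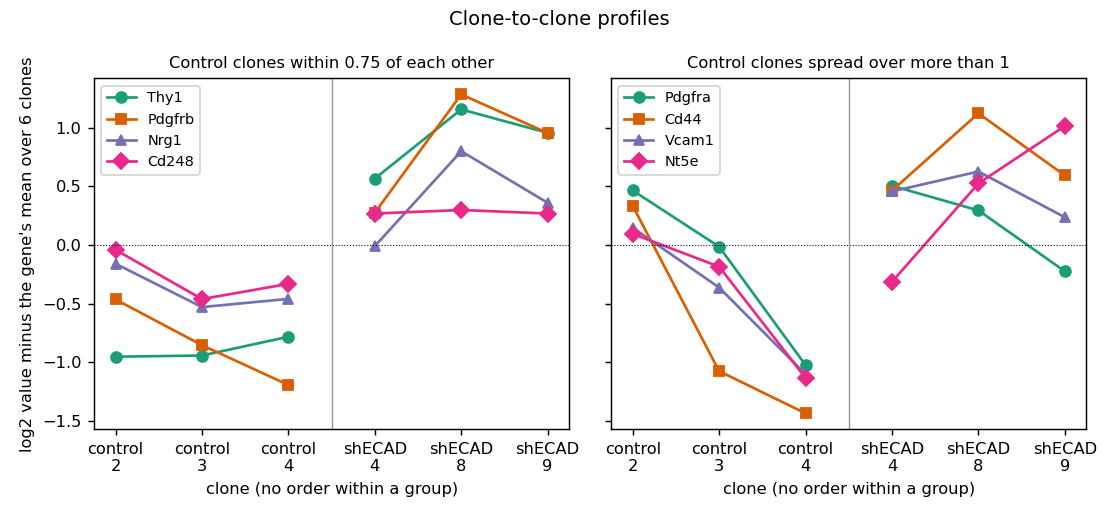
Log2 value of 8 surface genes minus each gene's mean over the 6 clones (y axis), by clone (x axis; lines join the clones of a group for reading only). On the left the control clones are within 0.75 of each other and all lie below the shECAD clones. On the right they spread over more than 1, with control clone 4 lowest for each gene. Eng and Ngfr are not shown. Their control clones also lay close together (ranges 0.27 and 0.32), but their groups overlapped.

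Over the 6 clones, 7 of the 10 members had an SD of at least 0.5, where 5.86% of all genes did. The patterns of these 7 were set against each other by the mean absolute difference of their centred log2 values, a description over 6 clones that share the 2 groups. The nearest pair was Thy1 and Pdgfrb (0.24), then Pdgfra and Vcam1 (0.26), and the farthest was Thy1 and Pdgfra (0.78). Among the other named genes with an SD of at least 0.5, the nearest to Thy1 was Actg2, a smooth muscle actin gene (0.091), followed by Grem1, which encodes the BMP antagonist gremlin (0.189). Actg2 read 4.11, 4.12 and 4.01 in the control group and 5.48, 6.05 and 5.82 in the shECAD group, and its control values all lay below the dim reference of their arrays, so that their order has no meaning. The nearest to Pdgfrb were Cyp1b1 (0.112), an oxidative enzyme gene, and Inhba (0.145), an activin subunit gene. The nearest to Cd44 were the connective tissue regulator Prrx1 (0.158) and the membrane protein gene Emp1 (0.161). Pdgfra lay nearest to the growth factor gene Ereg (0.078) and the chemokine gene Ccl2 (0.081), and Vcam1 to Layn (0.054), which encodes another hyaluronan receptor, and S100a6 (0.064). Nrg1 lay nearest to the semaphorin receptor gene Nrp2 (0.05) and the tissue factor gene F3 (0.063), and Nt5e to Nnat (0.158) and Pxdn (0.175).

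The ligands, co-receptors and enzymes around these surface proteins were followed in a list of 48 symbols, of which 40 were matched. In this list 9 rose, 0 fell and 31 did not pass, with a median change of 0.42. Msn, which encodes moesin, a protein that links CD44 to the actin cortex, rose 2.55-fold (limma adjusted p = 0.00897) and was called in all 6 fits that left out a clone. The other linkers of this family, Ezr and Rdx, had log2 changes of -0.05 and -0.02 and did not pass. Has2, the main hyaluronan synthase gene of mesenchyme, read 6.57, 5.74 and 5.08 in the control group and 7.64, 7.25 and 7.43 in the shECAD group. The shECAD clones were all higher, and Has2 rose 3.12-fold (limma adjusted p = 0.0252).

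An integrin that binds VCAM1 is built from the products of Itga4 and Itgb1. Itgb1 rose 1.92-fold and Itga4 rose with it (log2 change 0.87, limma adjusted p = 0.0143 and 0.0295). The list's other integrin genes, Itga9, Itgb7, Itgav and Itgb3, had log2 changes of 0.03, -0.48, 0.48 and 0.45 and did not pass. Itga4 read 3.83, 3.90 and 4.09 in the control group, all below the dim reference, so its size is not given as a fold. Among the ligands of the PDGF receptors Pdgfd rose from a level that was likewise below the reference in each control clone (log2 change 0.98, limma adjusted p = 0.0195), while Pdgfa, Pdgfb and Pdgfc had log2 changes of 0.00, 0.77 and 1.15 and did not pass. Of the TGF-beta ligands Tgfb2 was 1.84-fold and Tgfb3 2.17-fold higher (limma adjusted p = 0.0269 and 0.0185), and Tgfb1 (0.72) did not pass. Tgfb3 was below the dim reference in control clones 3 and 4 and Tgfb2 in control clone 4, so these folds rest partly on values near background. Lgals3bp, the gene of a secreted galectin-binding glycoprotein, rose 2.04-fold and Fn1, the fibronectin gene, 1.71-fold (limma adjusted p = 0.0271 and 0.0302). The neuregulin receptor genes Erbb2, Erbb3 and Erbb4 had log2 changes of -0.04, 0.30 and 0.08 and did not pass, and Erbb4 was below the dim reference on every array. Of the 9 rises, all but that of Msn lost their call when some clone was left out: only 2 stayed called if control clone 3 or shECAD clone 8 was dropped, and only 1 if control clone 4 or shECAD clone 4 was.

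Beside the 10 members, 23 further mesenchymal surface genes held 3 rises, 0 falls and a median change of 0.58. They were Cdh11, a mesenchymal cadherin (3.83-fold, limma adjusted p = 0.012), Cd109, a lipid-anchored surface protein (3.14-fold, adjusted p = 0.0193), and the receptor kinase gene Axl (2.48-fold, adjusted p = 0.0199). Control clone 4 was below the dim reference for Cd109. Dropping control clone 2 gave 7 rises, dropping shECAD clone 4 gave 1 and dropping shECAD clone 8 gave 0. Among 29 fibroblast genes of the matrix, its enzymes and regulators, 18 rose, 0 fell and 11 did not pass, with a median of 0.89. Fn1 stands in this list and in that of the ligands and partners, so its rise is counted in both. The groups overlapped for Col3a1, Dcn, Fstl1, Tcf21 and Lum (log2 changes 0.82, 0.48, 0.54, 0.22 and -0.23), which did not pass. Tcf21 was below the dim reference on every array. For the other 24 the shECAD clones all lay above the control clones, as for 11.1% of all genes. Thbs1, the thrombospondin 1 gene, rose 8.48-fold, the protease inhibitor gene Timp3 5.98-fold, the collagen cross-linking gene Lox 5.11-fold and the periostin gene Postn 4.79-fold (limma adjusted p = 0.00282, 0.00282, 0.007 and 0.00282). Postn was below the dim reference in control clones 2 and 4, so that its fold rests on values near background. Dropping either of control clones 3 and 4 gave 7 rises, and dropping shECAD clones 4, 8 or 9 gave 8, 6 or 11. Whether the shares of called genes differ between these lists was not tested.

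**Figure D4:**
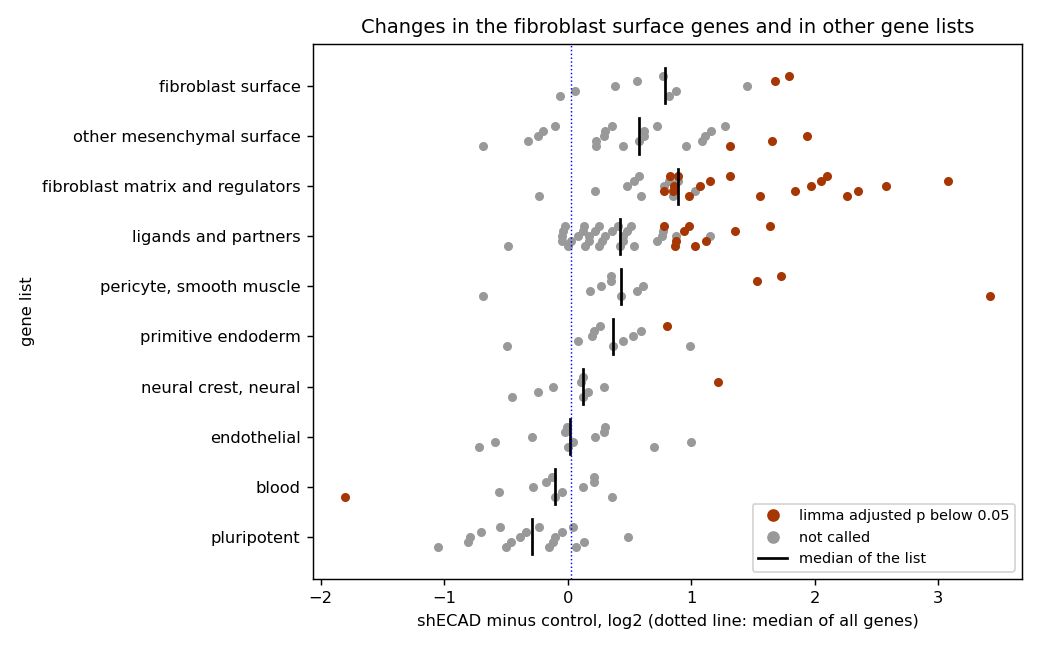
Change of every measured gene of 10 lists (y axis) as shECAD minus control on the log2 scale (x axis); coloured points are called, black bars are list medians and the dotted line is the median of all genes (0.025). The medians are 0.79 for the fibroblast surface genes and 0.89 for the matrix genes, and -0.29 for the pluripotency genes.

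Markers of other cells that carry some of these proteins were read beside them. Of 11 pericyte and smooth muscle genes 3 rose and 0 fell: Acta2 (10.7-fold), Tagln (3.31-fold) and Cnn1 (2.89-fold), with limma adjusted p-values of 0.00812, 0.00293 and 0.0119, all of them contractile genes. Cnn1 was below the dim reference in control clones 2 and 4, so that its fold rests on values near background. The mean of the 11 was 5.27 to 5.47 in the control clones and 6.09 to 6.20 in the shECAD clones. Acta2, Tagln and Cnn1 weighed most in this mean (log2 changes 3.42, 1.73 and 1.53), and the median change of the 11 was 0.43. Of the 11, 7 were above the dim reference on all 6 arrays and 2 on none. The pericyte genes Notch3, Cspg4 and Mcam were among the 7, with log2 differences of 0.56, 0.43 and -0.69 that did not pass the test, and Rgs5 and Abcc9 were the 2. Of 11 blood genes 1 fell, Laptm5, a lysosomal membrane protein gene (log2 change -1.80, limma adjusted p = 0.044), and 0 rose. The list's mean was 4.70 to 4.98 in the control clones and 4.53 to 4.74 in the shECAD clones, and 3 were above the dim reference on all 6 arrays (Laptm5, Cd68 and Cd3e) and 5 on none, among them Ptprc, the common leukocyte antigen gene. Laptm5 lost its call without any 1 control clone or without shECAD clone 8. The endothelial mean was 4.80 to 5.08 and 4.93 to 5.16, and the neural crest and neural mean 5.03 to 5.10 and 5.14 to 5.24. Nes, with a log2 change of 1.22, weighed most in that last mean. The neural crest and neural median change was 0.12, with a positive change for 6 of the 9 genes. Tubb3, Pax6 and Sox1 went the other way, with log2 changes of -0.45, -0.24 and -0.12. The part of feeder cells, of remaining fibroblasts or of other cells in the levels of the surface genes was not tested.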

How the data were processed

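Total RNA (100 ng per clone) of 6 clones was labelled with biotin and hybridised to Affymetrix whole-transcript arrays, per the labels' protocols. The authors deposited log2 expression values, 1 per probeset and array, for which the submitters' processing notes name RMA and Partek with neither version nor setting; the genome build is not given in the sources used. RMA background correction can compress low values, and the number of arrays limits the precision.

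Of 28853 probesets, 21789 had exactly 1 symbol in the platform annotation, 1621 several (left out) and 5443 none here; the probeset with the highest mean over 6 arrays stood for each of 19938 genes. All 10 members matched RefSeq by Entrez identifier. Groups were compared with limma 3.58.1 in R 4.3.3 (lmFit, eBayes), no covariate, tested on simulated data. Alternatives were median centring, quantile normalization, brighter genes, mean of probesets, every probeset, trend with robust prior, array weights, an adjusted p of 0.1, a stricter dim reference and leaving out each clone. The members and the 9 further lists were chosen with earlier results of these data known. Fn1 and Mcam each stand in 2 of these lists. Named genes are the members, Cdh1, up to 4 called genes per list by size (else 2), and 2 nearest patterns per member with an SD of at least 0.5; other genes were named for their role after their values were seen. Figures used matplotlib 3.10.9.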

Additional observations from a re-analysis of the deposited data

How the results depend on the processing

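With 1 clone left out, the change ran from 1.66 to 1.95 for Thy1, 1.46 to 1.96 for Pdgfrb, 1.10 to 1.98 for Cd44, 0.551 to 1.18 for Vcam1, 0.454 to 1.18 for Nt5e, 0.561 to 0.966 for Nrg1, 0.464 to 0.673 for Cd248, -0.0328 to 0.711 for Pdgfra, -0.247 to 0.275 for Eng and -0.0244 to 0.137 for Ngfr. Pdgfra turned without control clone 4, Eng without control clone 4 (0.0202) or shECAD clone 9, and Ngfr without control clone 3. Members called numbered 1 to 4 and genes called 146 (without control clone 4) to 543. With array weights 4 members and 1067 genes were called, Cd44 (1.59) and Vcam1 (1.09) among them, and Eng turned (0.0666). With an intensity trend and robust prior Cd248 was called (0.556). Of the pluripotency genes 1 was called lower with array weights and 2 with the trend and robust prior. At an adjusted p below 0.1, 5 members and 1278 genes were called. With every probeset on its own, 241 of 28853 probesets were called, those of Thy1 and Pdgfrb among them. After median centring Ngfr turned (-0.0323), and 303 genes were higher and 377 lower, against 378 and 245 as deposited. Above the dim reference on all 6 arrays lay 8 members, and 4 under the 99th percentile. In the settings other than leaving out a clone, Thy1 ran from 1.70 to 1.81 and Pdgfrb from 1.59 to 1.68, both called in all 7. Since each member had 1 probeset, only median centring, quantile normalization and array weights could move its change. The others could alter only its error and its adjusted p. Nt5e and Nrg1 were absent from the fit of brighter genes. The causes of these moves were not tested. No paired analysis was possible because the groups share only 1 clone number, 4, and the numbers name separate lines.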
